A study of Mus musculus with 13 samples.

Results

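KAP1 (gene Trim28) is a corepressor that zinc finger proteins bring to DNA, and it is best known for the silencing of transposable elements through H3K9me3. A share of its binding lies elsewhere, at promoters that carry active histone marks and RNA polymerase II (PolII), the enzyme that transcribes protein-coding genes. The 1908 KAP1 sites described here are of that kind. They were chosen by rule from the 12470 KAP1 peaks of the murine hepatoma line Hepa 1-6: each overlapped by at least 1 bp an H3K27ac or H3K4me1 region, both marks of active regulatory chromatin, and a PolII peak of control cells, and none overlapped an H3K9me3 region. Together they cover 2.79 Mb. PolII and RNA polymerase III (PolIII, which transcribes tRNA genes and other small RNA genes) were profiled in cells fixed 5 days after lentiviral transduction and puromycin selection, either control cells (labelled as carrying a control short hairpin RNA, whereas the methods name an empty vector) or cells with a short hairpin RNA against Kap1 (Kap1 KD). KAP1 and the histone marks were profiled in Hepa 1-6 cells in standard culture, and no KAP1 profile of Kap1 KD cells was analysed here. The study checked the knockdown by RT-qPCR, which is not among the data used here. The study asked how KAP1 at active PolII promoters relates to PolII there, and whether PolII differs once KAP1 is depleted.

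Each of the 8 lists comes from 1 ChIP-seq library: chromatin was pulled down with an antibody, its DNA sequenced, and places where reads pile up listed as peaks. There is therefore no replicate error, no test between conditions was possible, and the depth of each list is unknown. Shares carry 95% Wilson intervals for counting error among peaks alone, and neighbouring peaks are not independent. The following kinds of KAP1 peak were set beside the 1908 sites: 3480 with an active mark, no H3K9me3 and no control PolII peak, and 4412 in H3K9me3 without an active mark. The hepatoma label was read from 12 hepatocyte markers, 7 of which had H3K27ac at the promoter and 2 control PolII, and from 15 markers of other cell types, 1 of which had H3K27ac and 1 (Cd68) control PolII. The PolII peak at Cd68 was the one that also covers the neighbouring gene Eif4a1.

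Examples of 3 kinds of sequence among the sites are printed from the mouse assembly mm9. Most of the 459 sites over 1 kb from the start of a protein-coding gene are of none of these kinds. No example of those is printed. The first kind overlapped PolIII peaks in both conditions. Examples from the 10 sites with the highest KAP1 scores are shown around a match to the B box, the promoter element inside tRNA genes, with the match (GTTCGANNC) in capitals. They lie at chr11:97563704-97563853 (minus strand, upstream of Psmb3) and chr7:128061021-128061170 (plus strand, upstream of Polr3e).
Psmb3 site: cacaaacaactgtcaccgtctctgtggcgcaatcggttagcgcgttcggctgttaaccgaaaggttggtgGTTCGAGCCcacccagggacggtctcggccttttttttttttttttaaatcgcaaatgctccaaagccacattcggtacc
Polr3e site: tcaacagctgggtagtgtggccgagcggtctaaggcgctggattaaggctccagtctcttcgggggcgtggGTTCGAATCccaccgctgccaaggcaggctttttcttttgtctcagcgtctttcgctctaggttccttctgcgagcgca

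The second kind lies over genes of small nuclear RNAs (snRNAs), the RNA components of the spliceosome, most of which PolII transcribes. Shown are the start of the U2 gene under the highest-scoring snRNA site, at chr11:101488570-101488719 (rank 191 of all KAP1 peaks by score), and that of a further U2 copy at chr11:101519442-101519591, both on the plus strand, with the first 40 bases of the gene in capitals. These copies were chosen after their values had been seen. All 40 bases of the gene were identical between them, and 70 of the 110 bases before it were identical at the same position.
U2, KAP1 rank 191: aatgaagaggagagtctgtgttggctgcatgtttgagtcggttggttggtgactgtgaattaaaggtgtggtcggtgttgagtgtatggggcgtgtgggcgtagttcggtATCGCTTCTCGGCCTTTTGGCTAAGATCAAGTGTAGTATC
U2, KAP1 rank 246: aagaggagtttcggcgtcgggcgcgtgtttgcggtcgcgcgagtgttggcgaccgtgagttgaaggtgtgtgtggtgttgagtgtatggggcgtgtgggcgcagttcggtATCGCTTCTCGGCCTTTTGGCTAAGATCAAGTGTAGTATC

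The third and by far the most common kind is the promoter of a protein-coding gene. The 300 bp around the centre of the KAP1 peak are shown for a histone H4 gene (Hist1h4h, chr13:23622663-23622962, a site that also overlapped PolIII in both conditions), a ribosomal protein gene (Rps20, chr4:3762657-3762956), a translation factor gene (Eif5a, chr11:69734953-69735252) and the immediate early gene Junb (chr8:87502490-87502789), on the plus strand of the assembly. Capitals mark matches, on either strand, to the 17 short motifs searched, and matches to 1 motif may overlap. Hist1h4h holds an Sp1/KLF GC box (GGGCGG) and a CREB site (TGACGTCA). Rps20 holds GC boxes, an E-box (CACGTG), an AP-1 site (TGANTCA) and a TATA box (TATAAA). Eif5a holds a GC box and an E-box. Junb holds an ETS site (CCGGAAG) and a TATA box. It also holds a FOXA site (TGTTTACA). A match to the core of CTCF sites (AGGGGGC) completes its set.
Hist1h4h: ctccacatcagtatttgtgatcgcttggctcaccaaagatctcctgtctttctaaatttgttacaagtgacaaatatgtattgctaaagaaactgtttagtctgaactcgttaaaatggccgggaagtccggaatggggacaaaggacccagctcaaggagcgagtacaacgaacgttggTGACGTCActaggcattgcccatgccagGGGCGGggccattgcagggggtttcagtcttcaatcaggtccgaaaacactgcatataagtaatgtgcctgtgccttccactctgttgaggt
Rps20: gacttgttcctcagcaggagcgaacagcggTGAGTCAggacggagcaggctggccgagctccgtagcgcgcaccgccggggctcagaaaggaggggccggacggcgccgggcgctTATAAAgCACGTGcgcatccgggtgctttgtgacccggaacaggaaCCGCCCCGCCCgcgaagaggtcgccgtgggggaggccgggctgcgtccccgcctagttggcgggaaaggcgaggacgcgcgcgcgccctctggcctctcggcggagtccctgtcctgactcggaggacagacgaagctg
Eif5a: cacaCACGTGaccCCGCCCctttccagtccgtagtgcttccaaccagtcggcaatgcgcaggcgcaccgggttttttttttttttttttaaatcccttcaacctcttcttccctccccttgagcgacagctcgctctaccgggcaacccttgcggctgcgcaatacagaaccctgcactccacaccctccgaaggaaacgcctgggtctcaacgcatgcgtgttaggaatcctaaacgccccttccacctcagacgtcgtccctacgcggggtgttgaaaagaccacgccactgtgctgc
Junb: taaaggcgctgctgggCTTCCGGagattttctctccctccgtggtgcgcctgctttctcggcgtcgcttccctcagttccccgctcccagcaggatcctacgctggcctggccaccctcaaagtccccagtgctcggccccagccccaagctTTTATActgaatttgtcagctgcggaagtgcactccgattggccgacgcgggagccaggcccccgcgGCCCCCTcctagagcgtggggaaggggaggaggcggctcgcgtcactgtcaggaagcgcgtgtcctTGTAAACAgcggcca

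The KAP1 sites with PolII lay mostly at transcription start sites (TSSs). The centre of 1449 of the 1908 sites (75.9%, 95% Wilson interval 74.0 to 77.8%) lay within 1 kb of the TSS of a protein-coding gene, and that of 1095 (57.4%) within 250 bp. Of all KAP1 peaks 28.1% lay within 1 kb. The share was 34.1% (32.5 to 35.6%) for KAP1 peaks with an active mark and no PolII, and 10.4% (9.56 to 11.4%) for those in H3K9me3. PolII peaks without KAP1 that carried an active mark and no H3K9me3 lay within 1 kb of a TSS in 54.9% (52.5 to 57.3%) of 1677 cases, compared with 71.8% (69.7 to 73.8%) of the 1828 PolII peaks that overlapped one of the sites. The rule asked for PolII, and 55.1% of all control PolII peaks lay within 1 kb of a TSS.

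At the promoters the KAP1 peaks were centred close to the TSS, as were promoter KAP1 peaks in general. For the 1449 sites near a TSS the peak centre had a median offset of -23 bp along the gene, with quartiles of -136 and 57 bp, and 869 of the centres were upstream. All 3500 KAP1 peaks near a TSS had a median of -22 bp with quartiles of -136 and 93 bp, and the promoter KAP1 peaks without PolII had -46 bp with quartiles of -158 and 15 bp. Nearness to a TSS within 1 kb was the condition for entering each of these groups. The peak spanned the TSS in 96.8% of them, with median edges at -633 and 556 bp. The PolII peak was shifted slightly into the gene, with its centre at a median of 88.5 bp and its edges at -414 and 544 bp. TSSs of genes on both strands were present at 14.8% (13.1 to 16.8%) of the sites near a TSS and at 14.4% (12.5 to 16.5%) of the promoter KAP1 peaks without PolII, so the intervals overlapped.

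At the promoters the active marks flanked the TSS. H3K27ac covered 12.5% of the 1449 start sites, 66.5% of the positions 550 bp upstream and 66.5% of those 950 bp downstream. H3K4me1 lay farther out, covering 1.59% at the TSS, 64.7% at 900 bp upstream and 77.0% at 1800 bp downstream. KAP1 and control PolII covered 97.0% and 89.5% of the same start sites. The promoter KAP1 peaks without PolII had the same order of marks, with H3K27ac at 8.78% of the TSSs, 53.8% at 500 bp upstream and 49.5% at 650 bp downstream. Their downstream H3K4me1 maximum was nearer, 72.4% at 1250 bp. The rule used whether marks and PolII overlap the KAP1 peak, so their presence is no finding. An admitting mark had to reach the peak, with median edges at -633 and 556 bp, so the profile is partly set by the rule. Where along the peak the overlap falls was not used by it.

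**Figure D1:**
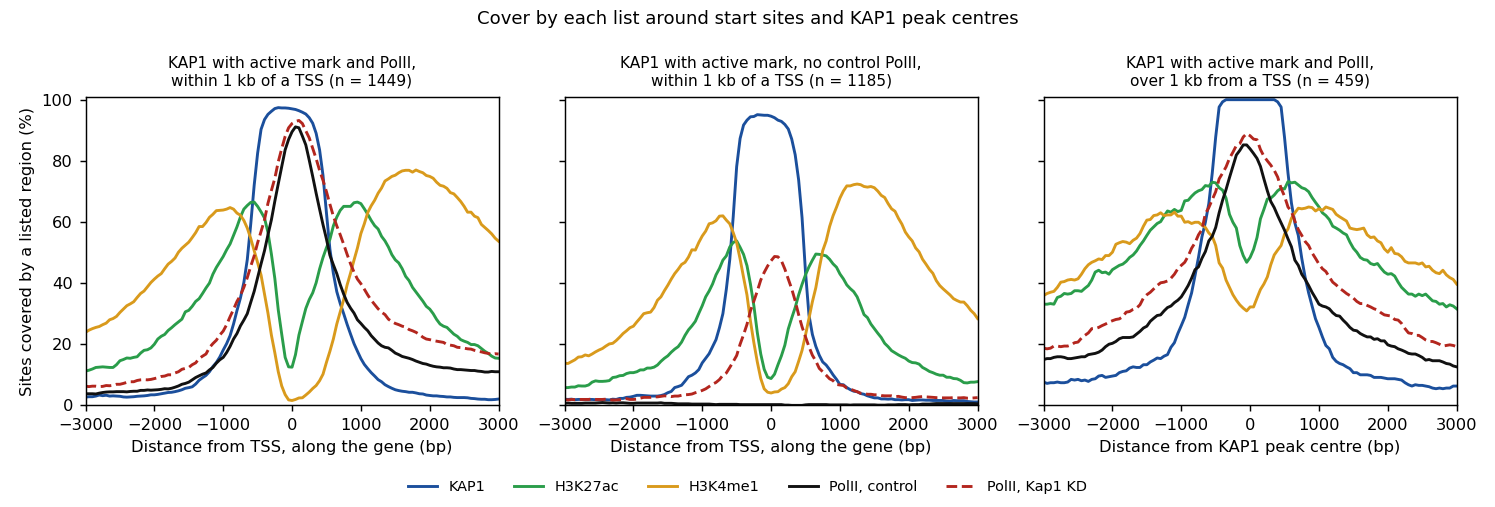
Percent of sites covered by a region of each list (vertical axis) by distance in bp (horizontal axis), for the 1449 KAP1 sites with an active mark and PolII near a TSS, the 1185 KAP1 peaks with an active mark and no control PolII near a TSS, both centred on the TSS, and for the 459 sites with PolII over 1 kb from a TSS, centred on the KAP1 peak. KAP1 peaks at the centre in each, and PolII in the sites with PolII, while H3K27ac and H3K4me1 dip there and are highest on both sides, H3K4me1 farther out at the promoters.

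By the marks that admitted them, 1424 sites had both, 412 had H3K27ac alone and 72 had H3K4me1 alone. H3K27ac was thus present at 96.2% of the sites and H3K4me1 at 78.4%. The sites with H3K27ac alone were closest to TSSs (median distance 98.5 bp) and had control PolII peaks with a median percentile of 67.5 within the authors' score ranking. Those with both marks had medians of 210 bp and a percentile of 61.7, and those with H3K4me1 alone 141.5 bp and a percentile of 44.5.

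The sequence under the sites was mostly rich in CpG. A 500 bp window around the centre was counted as CpG rich when its GC content was at least 50% and its observed over expected CpG ratio at least 0.6. This held for 1319 sites (69.1%, 67.0 to 71.2%), against 31.7% of all KAP1 peaks, 29.2% (27.7 to 30.8%) of those with an active mark and no PolII, and 1102 of the 4412 in H3K9me3. The share moved with the position: near a TSS 84.5% (82.6 to 86.3%) of the sites and 78.9% (76.5 to 81.1%) of the KAP1 peaks without PolII were CpG rich. Away from TSSs 20.5% (17.0 to 24.4%) of the sites were, compared with 3.57% of the 2295 KAP1 peaks there without PolII. The median GC content was 60.2%, against 49.6% without PolII.

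**Figure D2:**
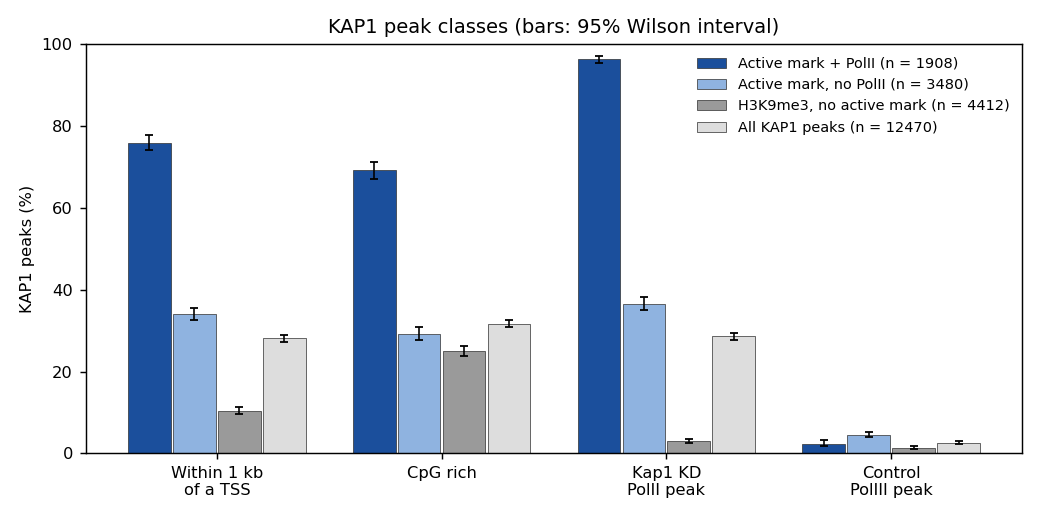
Percent of KAP1 peaks (vertical axis) in 4 classes that lie within 1 kb of a TSS, are CpG rich, overlap a Kap1 KD PolII peak or overlap a control PolIII peak, with 95% Wilson intervals. The sites with PolII (dark blue) stand at 75.9, 69.1 and 96.3% for the first 3 measures, and at 2.41% for PolIII. The rule asked for control PolII, so the contrast in Kap1 KD PolII follows from it.

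Motif matches in the 300 bp around the peak centre followed the same division by position. Near a TSS, the GC box was found in 62.9% (60.4 to 65.4%) of the sites and 61.4% (58.6 to 64.2%) of the KAP1 peaks without PolII, against 45.8% of all protein-coding gene starts. The ETS letters were found in 20.8% (18.8 to 23.0%), 21.4% (19.2 to 23.9%) and 11.3%. The letters TCTCGCGAG, bound by the methyl-CpG factor ZBTB33, were found in 2.69% (1.98 to 3.66%) of the sites near a TSS, 0.591% (0.286 to 1.21%) of the KAP1 peaks there without PolII and 0.823% of all gene starts. At ribosomal protein promoters with a site they were in 15.2% (6.65 to 30.9%) of 33. The AP-1 letters were rare at promoters, in 4.76% (3.78 to 5.98%) of the sites near a TSS, and more frequent away from them, in 21.6% (18.1 to 25.6%) of 459 sites and in 38.2% (36.2 to 40.2%) of the KAP1 peaks there without PolII. Liver factor motifs were set beside the same classes. Near a TSS the FOXA letters were in 0.414% (0.190 to 0.900%) of the sites, 1.01% (0.580 to 1.76%) of the KAP1 peaks without PolII and 0.854% of all gene starts. The HNF4 letters CAAAGTCCA were in 0.207% (0.0704 to 0.607%), 0.169% and 0.393%. The HNF1 letters TTAATNATT were in 0.138% (0.0379 to 0.502%), 0.422% (0.180 to 0.984%) and 0.943%, and the C/EBP letters TTGNNCAA in 3.11% (2.33 to 4.13%), 3.21% (2.35 to 4.37%) and 5.08%. For each of these motifs the intervals of the sites and of the KAP1 peaks without PolII overlapped near a TSS. Away from TSSs the FOXA and HNF1 letters were in 9 (1.03 to 3.68%) and 11 (1.34 to 4.24%) of the 459 sites, against 2.96% (2.34 to 3.74%) and 2.27% (1.73 to 2.96%) without PolII. GC content differs between these classes and moves with the share of GC-rich motifs; its part in them was not tested.

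PolII peaks at the sites had somewhat higher scores than active PolII peaks without KAP1. The median score of the 1828 PolII peaks over a site was 47, against 42 for the 1677 without KAP1 and 40 for all 5015 control PolII peaks. The scale of the score is the authors', so it was used only for order within a list. Most PolII peaks (1757) held 1 site, 61 held 2 and 10 held 3. Of the 29 control PolII peaks with a score of 1000 or more, 27 overlapped one of the sites and 16 a site over an snRNA gene. The KAP1 score moved with the PolII score among the sites: with the sites ordered by KAP1 score and cut into 4 classes of equal size, PolII peaks had a median percentile of 53.4 in the lowest class and 75.3 in the highest. In that highest class 70.6% (66.4 to 74.6%) of 477 sites lay within 1 kb of a TSS and 61.8% (57.4 to 66.1%) were CpG rich, compared with 78.6% (74.7 to 82.1%) and 73.2% (69.0 to 76.9%) in the class below it.

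After Kap1 knockdown nearly all of the sites still had a called PolII peak. The Kap1 KD list overlapped 1837 of the 1908 sites (96.3%, 95.3 to 97.0%), against 28.6% of all KAP1 peaks. That contrast follows from the rule, which asked for control PolII, present at only 2091 of the 12470 KAP1 peaks. The Kap1 KD list is longer than the control list, 12862 against 5015 peaks. Cut to the length of the control list by score, it overlapped 77.4% of the sites. No such cut was made for PolII peaks without KAP1, and the shares that follow use the full Kap1 KD list. Of the PolII peaks over a site 96.1% (95.1 to 96.9%) were found again, compared with 90.4% (88.9 to 91.7%) of those without KAP1 and 86.1% of all control PolII peaks. In the lowest of 5 classes of control PolII score the shares were 87.4% (82.4 to 91.1%) and 72.9% (66.9 to 78.2%), and in the highest class 97.8% (96.1 to 98.8%) and 95.7% (92.9 to 97.4%). The intervals were apart in the lowest class and in the class below the highest (98.8%, 97.2 to 99.5%, against 93.3%, 90.3 to 95.4%), and they overlapped in the other classes. The Kap1 KD peak was wider than the control peak at 77.5% of the 1837 sites and at 77.3% of 1516 PolII peaks without KAP1. A KAP1 peak with an active mark and no control PolII overlapped a Kap1 KD PolII peak in 36.6% (35.0 to 38.2%) of cases.

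**Figure D3:**
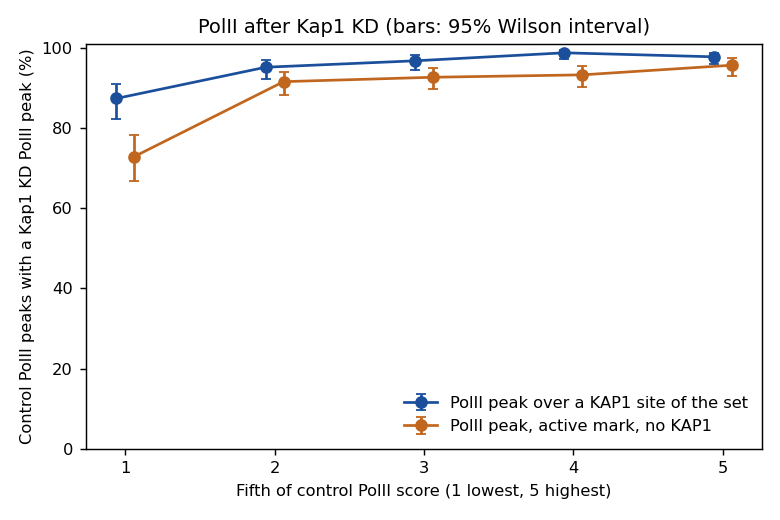
Percent of control PolII peaks that overlap a Kap1 KD PolII peak (vertical axis, 95% Wilson intervals) by control PolII score in 5 classes (horizontal axis), for peaks over a KAP1 site and for active peaks without KAP1. The values rise from 87.4 and 72.9% in the lowest class to 97.8 and 95.7% in the highest.

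The 71 sites without a Kap1 KD PolII peak had weaker control PolII, with a median percentile of 23.6, and 3 of them had a Kap1 KD peak within 1 kb. Among marks, sites with H3K4me1 alone kept a PolII call in 87.5% of 72 cases (77.9 to 93.3%), those with both marks in 95.9% and those with H3K27ac alone in 408 of 412. The strongest of the 71 lay under long PolII peaks. A single control PolII peak of 6945 bp (score 420) held the site at the promoter of Eef2, a translation elongation factor (chr10:80638788-80639783), and that at 4930442H23Rik (chr10:80644888-80646118). The others were at Tlcd2 and the microRNA gene Mir22 (chr11:75273153-75277433, PolII score 349), 40818 bp from the nearest TSS, of Azin1 (chr15:38383712-38388938, 347), and 1491 bp inside Acsl5 (chr19:55327559-55331140, 254). The call numbers of the Kap1 KD list have gaps, where numbers are absent from the list, and 28 of the 71 sites (39.4%, 28.9 to 51.1%) fell in such a gap, compared with 50 of the 161 PolII peaks without KAP1 that were not found again (31.1%, 24.4 to 38.6%) and 9.34% of all intervals between neighbouring Kap1 KD peaks. The Wilson intervals of the sites and of the PolII peaks without KAP1 overlapped. The share of all intervals counts each one once whatever its length, so it is no expected value for a site. Whether PolII itself was lower at the 71 sites cannot be read from the list.

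The share of promoters with a site differed widely among 19 gene lists. Of 22367 protein-coding genes, 1535 (6.86%) had a site within 250 bp of the annotated 5′ end, and 2941 (13.1%) had a control PolII peak there. The replication-dependent histone genes, whose promoters fire in S phase, stood at 39 of 67 (58.2%), translation factors at 17 of 36 (47.2%), chaperones at 12 of 27 (44.4%), cytosolic ribosomal proteins at 33 of 78 (42.3%), immediate early genes at 10 of 27 (37.0%) and splicing factors at 18 of 50. Genes of glycolysis (5 of 16), the PolII transcription machinery (13 of 56), DNA replication (6 of 29), KAP1 partners and heterochromatin proteins (5 of 26), mitochondrial ribosomal proteins (12 of 76) and proteasome subunits (5 of 37) lay lower. The zinc finger genes named Zfp stood at 35 of 361 (9.70%). The liver lists lay between 3.03 and 8.33%, around the 6.86% of all promoters: 1 of 12 hepatocyte markers (Apoe) had a site, as did 2 of 26 liver transcription factors (Zhx2 and Nr1h3), 1 of 33 plasma protein and apolipoprotein genes (Apoe) and 1 of 23 genes of cholesterol synthesis and uptake (Sqle).

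These counts go with PolII, which the rule asked for. Of the promoters with a control PolII peak, 1474 of 2941 (50.1%, 48.3 to 51.9%) had a site. The share was 33 of 67 for ribosomal proteins (49.3%, 37.7 to 60.9%), 39 of 60 for histones (65.0%, 52.4 to 75.8%), 17 of 26 for translation factors (65.4%, 46.2 to 80.6%) and 12 of 16 for chaperones (interval 50.5 to 89.8%). For the liver lists the numbers with PolII were small (2 of 6 liver transcription factors, 1 of 2 plasma proteins and 1 of 4 cholesterol genes had a site), and their intervals spanned the share of all PolII promoters. Among the 19 lists only the histone interval lay wholly above that of all PolII promoters, and neighbouring histone genes can share 1 site: 28 sites served the 39 histone promoters.

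**Figure D4:**
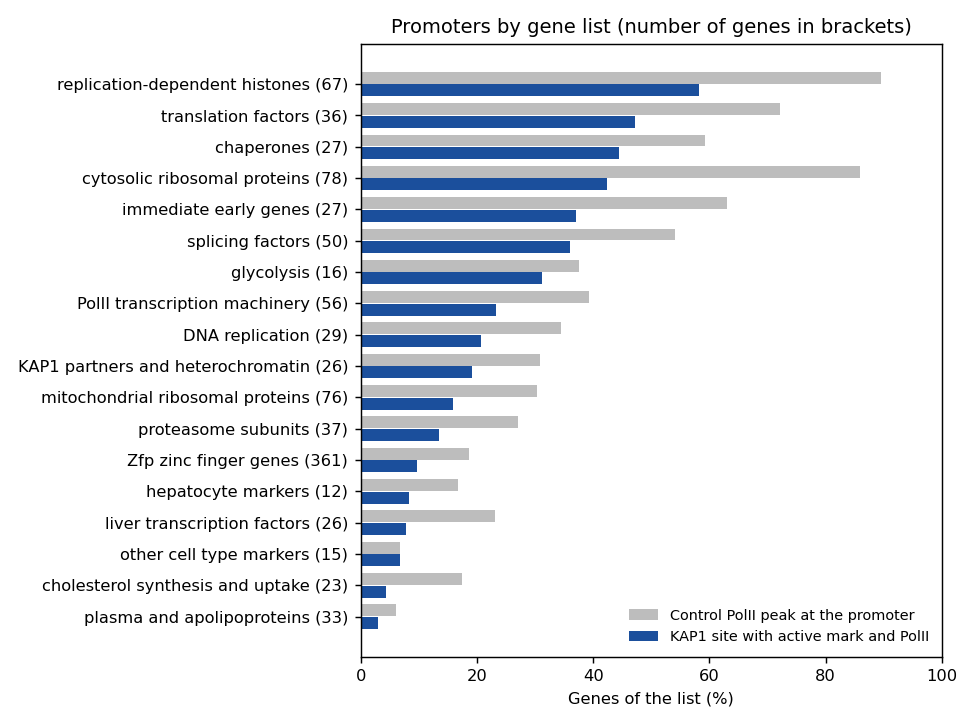
Percent of the genes in each list (horizontal axis) whose promoter has a control PolII peak (grey) or a KAP1 site with an active mark and PolII (blue). Histones, translation factors, chaperones and ribosomal proteins are highest in sites, at 58.2, 47.2, 44.4 and 42.3%, and plasma proteins and apolipoproteins lowest.

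Ribosomal protein sites combined moderate KAP1 scores with high PolII scores. Among ribosomal protein genes, Rps21 had a KAP1 score of 460 with PolII at 343 (control) and 718 (Kap1 KD), Rps20 had 398 with 504 and 813, and Rps19 had 372 with 155 and 610. The Rps21 site also overlapped a PolIII peak in the control alone. The translation factor sites with the highest KAP1 scores were at Eif5a, which had 628 with PolII at 425 and 880, Eif1, which acts in start codon selection, with 435 and PolII at 405 and 652, and the RNA helicase gene Eif4a1, with 263 and PolII at 542 and 1254. The scores of the PolII lists are not on a common scale, so the pairs cannot be read as changes. The 33 ribosomal protein sites had a median KAP1 score of 124 and a median control PolII percentile of 96.2, compared with 107 and 61.7 for all sites.

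Of the chaperone genes, Hspd1 and Hspe1, the mitochondrial chaperonins, share a divergent promoter and 1 site with a KAP1 score of 246, and Hsp90ab1 had 212. Glycolysis was represented by Gapdh (253, PolII 663 and 1186), Pgam1 (235) and Pfkm (179). The site at Srsf1, a splicing factor gene, stood apart from Srsf2 and Snrnp70 with a KAP1 score of 1891 against 513 and 363, and it also overlapped PolIII in both conditions. In the PolII machinery the highest were Polr2l (288), Hexim1, an inhibitor of the elongation factor P-TEFb (242), and Polr2a, the largest PolII subunit (213).

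Genes linked to KAP1 itself were among the sites. Cbx5 and Cbx3, which encode the heterochromatin proteins HP1α and HP1γ, had KAP1 scores of 213 and 176 at promoters that they share with Hnrnpa1 and Hnrnpa2b1, and Mbd3 had 201. The highest Zfp sites were at Zfp959 (319) and the nearby Zfp119a (240) on chromosome 17 and at Zfp143 (222), a regulator of snRNA genes. Of a list of 9 inducible and housekeeping genes that the study names, Ier5 (KAP1 score 55.4, PolII 179 and then 466 with Kap1 KD) and Junb (141, 316 and 915) had a site at the promoter. Ier2, Egr2, Egr3, Actg1, Tbp, Hspa1a and Hspa1b had none. Klf10 (KAP1 521.5) and Ier3 (125) were further immediate early genes with a site. The Apoe site had a KAP1 score of 53.4, close to the lowest of all sites (50.05).

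Most of the highest KAP1 scores among the sites were at PolIII peaks or over snRNA and U3 genes. Of the 1908 sites, 51 (2.67%) had a KAP1 score of 1000 or more, against 4.03% of all KAP1 peaks. Of these 51, 26 overlapped a PolIII peak in both conditions and 3 in the control alone. A further 15 lay over an snRNA gene, 3 over a U3 gene (the small nucleolar RNA that guides ribosomal RNA cleavage) and 2 at histone promoters. A protein-coding TSS lay within 1 kb of 16 of the 51. Of the last 2, 1 lay on chromosome 19 over Neat1, a long noncoding RNA of nuclear paraspeckles (chr19:5836510-5846151, KAP1 1027, PolII 2057). These groups were formed after the scores had been seen, so the counts are a description.

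All 26 sites with PolIII in both conditions were among the 51. Their KAP1 scores ran from 1011 to 3151 with a median of 3100. At this score 152 KAP1 peaks were tied and 18 of the 26 reached or passed it, so it does not rank these sites. PolII there was moderate (median percentile 56.2). The 20 sites with control PolIII alone had a median KAP1 score of 360, and the 1862 without PolIII had 105. The KAP1 peaks with an active mark and no PolII showed the same: the 117 with PolIII in both conditions had a median of 3100 and the 3316 without PolIII 83.3. PolIII overlapped 46 sites in the control (2.41%, 1.81 to 3.20%), against 2.63% of all KAP1 peaks and 4.57% (3.92 to 5.31%) of those with an active mark and no PolII. Under Kap1 KD it overlapped 26 (1.36%, 0.932 to 1.99%), against 1.51% and 3.51%. These shares depend on the choice of sites: they were 4.33 and 2.56% with only KAP1 peaks at or above the median score, and 1.49 and 1.15% with the KAP1 peak cut to 500 bp. No site had PolIII under Kap1 KD alone. That was rare among all KAP1 peaks too, where 177 of the 188 with Kap1 KD PolIII also had control PolIII. Of the 20 sites with control PolIII alone, 13 lay on chromosomes 1 to 4, which hold 2480 of the 2772 control PolIII peaks and 89 of the 431 under Kap1 KD. The 3 sites there with PolIII in both conditions compare with 23 elsewhere.

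**Figure D5:**
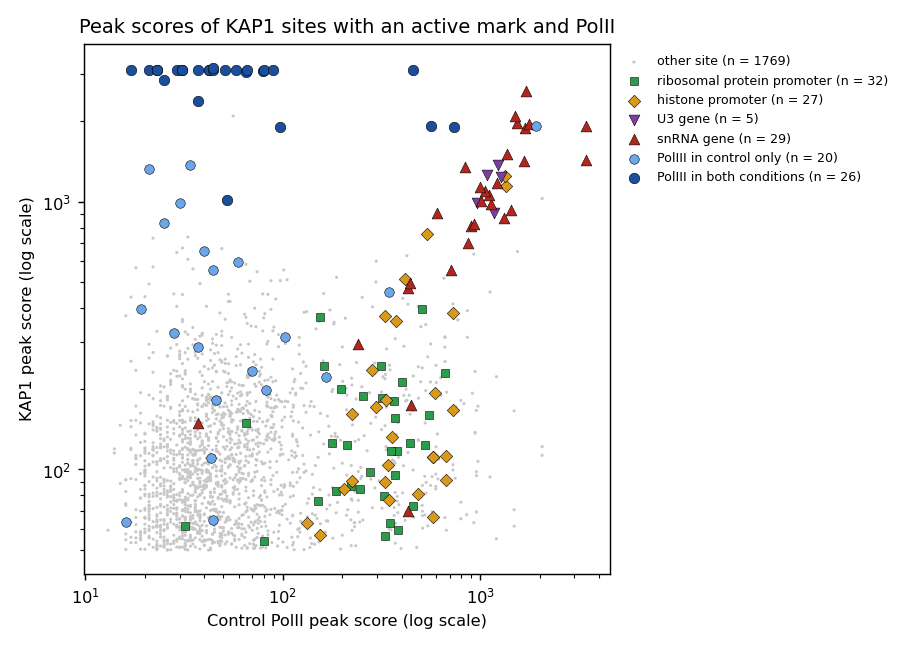
KAP1 peak score (vertical, log scale) against control PolII peak score (horizontal, log scale) for the 1908 sites, coloured by what lies there. Most sites with PolIII in both conditions lie in a band at a KAP1 score near 3100, snRNA and U3 sites lie mostly at the upper right, and most ribosomal protein promoters have high PolII scores, with exceptions down to 32.

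The 10 highest KAP1 scores all belonged to sites with PolIII in both conditions. The highest, 3151, was at chr11:97563153-97565121, 576 bp upstream of the proteasome subunit gene Psmb3, with PolII scores of 44 and 62. The others were tied at 3100. One covered the TSS region of Ccdc107 and the RNase MRP gene, an RNA of mitochondrial and ribosomal RNA processing (chr4:43505008-43507393), 1 a Y RNA gene 25299 bp from Pdia4 (chr6:47737505-47738919), and 1 the start of Polr3e, which encodes a PolIII subunit (chr7:128060448-128063390). Others lay at Lasp1 and 1110001J03Rik, and at intergenic or noncoding positions nearest Gngt2, Klrb1b and Klrb1c. The B box letters were found somewhere in the KAP1 peak at 16 of the 26 sites (61.5%, 42.5 to 77.6%), in 94 of the 117 peaks with PolIII in both conditions and no PolII (80.3%, 72.2 to 86.5%), in 11.6% (10.2 to 13.1%) of the sites without PolIII and in 9.69% of all KAP1 peaks. The peaks of the 26 sites were wider, with a median of 1960 bp against 1240 bp without PolIII. In the 300 bp around the centre the letters were in 5 of the 26 (19.2%), in 1.72% of the sites without PolIII and in 0.970% of all gene starts. tRNA genes were not in the annotation used, so no site was assigned to one.

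The snRNA sites carried strong PolII. Of the sites, 31 (1.62%, 1.15 to 2.30%) overlapped an annotated snRNA gene, compared with 0.259% (0.136 to 0.491%) of KAP1 peaks with an active mark and no PolII and 0.136% (0.0623 to 0.296%) of those in H3K9me3. The rule asked for PolII, which the first of these classes lacks by definition and which 42 of the 4412 in H3K9me3 had. As PolII transcribes most snRNA genes, this difference cannot be told apart from the rule. The 31 sites reached 32 of the 1423 annotated snRNA genes (2.25%), many of which are copies that may be silent. Their control PolII peaks had a median percentile of 99.5 and their KAP1 scores a median of 1063. By RNA, 8 sites were over U2, 7 over U1, 7 over U5, 3 over snRNA genes without a family name, and 1 each over U4, U6, U7, U11, U12 and U4atac, so both the major and the minor spliceosome and histone RNA processing (U7) were represented. All 31 had PolII under Kap1 KD, as did 96.3% of all sites. For PolII peaks over a site in the highest of 5 control score classes the share was 97.8%. Only 7 of the 31 lay within 1 kb of a protein-coding TSS, so the others count among the sites far from one.

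At chromosome 11 a U2 cluster held the strongest. The site at chr11:101487892-101490960 had a KAP1 score of 2596 with PolII at 1707 (control) and 2976 (Kap1 KD). The sites at chr11:101502452-101504530 and chr11:101504602-101507857 lie under 1 PolII peak with a score of 3431 (5470 in Kap1 KD cells), the first with a KAP1 score of 1923 and the second of 1427. The U1 sites ran from 810 to 2092 in KAP1 score and from 834 to 1542 in control PolII score. The U6 site, over a gene type that PolIII transcribes, had the lowest control PolII score of the group (37) with a KAP1 score of 149, and the 7SK gene, a PolIII transcript that holds P-TEFb inactive, had 76.0 with PolII at 54 and 108 (chr1:186681303-186682727). No PolIII peak overlapped either. The 5 U3 sites had KAP1 scores of 903 to 1374 and PolII percentiles of 99.4 to 99.7, while the 16 sites over other snoRNA genes, most of which lie in introns of host genes, had a median KAP1 score of 142. Histone promoters held 28 sites with a median KAP1 score of 147, the highest at Hist1h4h (1913, with PolIII in both conditions), Hist2h2aa2 (1251) and Hist2h2aa1 (1143).

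Copies of these genes share sequence, which bears on where reads were placed. A run of 50 bases was shared with another KAP1 peak by 28 of the 31 snRNA sites (90.3%) and 21 of the 26 sites with PolIII in both conditions (80.8%), against 321 of the 1801 sites of none of the named groups (17.8%). How reads that match several places were treated was not given in the sources used here, and its part in the scores was not tested.

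The 459 sites over 1 kb from a protein-coding TSS were of mixed kind. Of these, 64.1% were intergenic, 29.6% lay in introns and 6.32% in exons, while of the 2295 KAP1 peaks without PolII far from TSSs 1468 were intergenic, 781 lay in introns and 46 in exons. By distance, 23.1% (19.5 to 27.2%) lay at 1 to 3 kb, compared with 11.9% (10.7 to 13.3%) of those without PolII, and 69 of the 459 lay beyond 50 kb, compared with 27.5% (25.7 to 29.4%). The start of a gene of another type was within 1 kb of 71 of them, 24 were over snRNA genes, 5 over U3 genes, 36 over long intergenic noncoding RNA genes and 16 had PolIII in both conditions. The last count is 3.49% (2.16 to 5.59%), against 4.18% (3.44 to 5.08%) of the far KAP1 peaks without PolII, so the intervals overlapped. Their control PolII percentile had a median of 69.8, against 60.6 near TSSs, and their median GC content was 51.0% against 62.0%. Here the profile was centred on the KAP1 peak and not on a TSS, so it is not compared with that of the promoters: H3K27ac covered 48.4% of the KAP1 centres, with maxima of 73.0 and 73.2% at 550 bp to each side. PolII under Kap1 KD was present at 94.8% (92.3 to 96.5%), against 96.8% (95.7 to 97.6%) near TSSs.

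The sites were unevenly spread over the chromosomes. Per 100 protein-coding genes there were 21.7 on chromosome 15, 21.1 on chromosome 19 and 16.7 on chromosome 11, and 0.474 on chromosome 9, 0.944 on 14, 1.14 on 12 and 1.63 on 16. Chromosome X held 1 site for 932 genes. The lists behind the rule were also short there: chromosomes 9, 12, 14, 16 and X had 232, 229, 210, 185 and 161 KAP1 peaks and 88, 47, 74, 79 and 68 control PolII peaks, while chromosome 11 had 1132 and 580. The share of KAP1 peaks that were sites differed as well, 2.59% on chromosome 9 and 24.4% on chromosome 11. The part of list length in the spread was not tested.

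At the edge of the rule, the smallest overlap of a site with its PolII peak was 21 bp, with 1 site at 50 bp or less, and the median was 841 bp. Outside it, 7 KAP1 peaks with an active mark missed a control PolII peak by 50 bp or less, the nearest by 3 bp, and 85 by 1 kb or less. The smallest overlap with an active mark was 1 bp. Left out were 42 peaks with PolII in H3K9me3 without an active mark, 55 peaks with PolII, an active mark and H3K9me3, and 86 with PolII and neither kind of mark, 67 of which lay within 1 kb of an active mark. The nearest H3K9me3 region was 38 bp from a site, and 29 sites had one within 1 kb.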

How the data were processed

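ChIP-seq was carried out in Hepa 1-6 cells with antibodies to KAP1, H3K27ac, H3K4me1, H3K9me3, PolII and PolIII. The authors aligned reads with Bowtie to mm9 (both named in the submitters' processing notes, the first Bowtie series for peak calling per the methods), used MACS with total input as background for KAP1 and PolII, and ChIP-Part for histone regions; options and the PolIII caller were not given in the sources used here. The deposited lists hold coordinates and, for KAP1, PolII and PolIII, a score per peak, which was used only for order within a list. Inputs were not analysed here, and samples were grouped by antibody and cells per the labels. The depth is unknown.

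Overlaps of at least 1 bp were counted in Python 3.11.15 (numpy 2.4.6, pandas 2.3.3), checked on simulated regions. TSSs were all transcript starts of protein-coding genes in GENCODE M1 on NCBIM37 (mm9), whose sequence was read with samtools 1.23.1. Motifs were searched on both strands. No test was made, because each group has 1 library. The sites, the 19 gene lists and the motifs were chosen with earlier results of these data known.

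Named were the 10 sites with the highest KAP1 score (ties by control PolII score), the 5 highest far from a TSS, the 5 highest with PolIII in both conditions, the 5 without Kap1 KD PolII with the highest control PolII score, up to 3 genes a list by KAP1 score, and the genes the study names. Sites on chromosome 18 and 1 of the 10 highest-scoring sites are not reported here by name. The snRNA, U3, Neat1 and 7SK sites were chosen after their values were seen.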

Additional observations from a re-analysis of the deposited data

How the results depend on the processing

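Of 48 alternatives, 29 kept the count of sites within 1.5 times, or the share within its own interval, and the others follow. Requiring each overlap to span 50% or more of either region gave 72.8% of sites near a TSS and 64.6% CpG rich. With the KAP1 peak cut to 500 bp the shares were 73.3% near a TSS, 95.3% with Kap1 KD PolII, 1.49% with control PolIII and 66.3% CpG rich. Requiring both active marks gave 72.8% and 64.0%. With only KAP1 peaks at or above the median score there were 1015 sites, of which 97.5% had Kap1 KD PolII, 4.33% control PolIII and 2.56% Kap1 KD PolIII. With only control PolII peaks at or above the median score there were 1182 sites, 98.2% with Kap1 KD PolII. The share near a TSS was 57.4% at 250 bp, 68.9% with 1 TSS per gene and, added later, 79.7% with TSSs of every gene type. A Kap1 KD list as long as the control list lowered its share to 77.4%, and a window of 300 bp gave 66.2% CpG rich. Also added after the data had been seen, leaving out chromosomes 1 to 4 gave 2.13% and 1.63% with PolIII, leaving out chromosome 15 gave 96.9% with Kap1 KD PolII, and leaving out chromosomes 9, 12, 14, 16 and X left 1873 sites. No replicate could be left out and no paired analysis was possible because each group holds 1 library. With depth unknown, an absent peak does not show that a factor was absent.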
